A study of Rattus norvegicus with 12 samples.

Results

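The 7 members described here are the complex I subunits written in the mitochondrial genome: Mt-nd1, Mt-nd2, Mt-nd3, Mt-nd4, Mt-nd4l, Mt-nd5 and Mt-nd6. They were chosen by gene identity, not by a rule on their values, though with earlier results of these data known. All 7 were found among the 16534 features of the deposited table and passed the filter on low values. The table lists Ensembl identifiers only. The gene names of the members came with the rule that chose them and could not be set against a name column; the identifiers are ENSRNOG00000030644 for Mt-nd1, ENSRNOG00000031033 for Mt-nd2, ENSRNOG00000033615 for Mt-nd3, ENSRNOG00000029707 for Mt-nd4, ENSRNOG00000031053 for Mt-nd4l, ENSRNOG00000029971 for Mt-nd5 and ENSRNOG00000029042 for Mt-nd6. The libraries are poly(A)-selected RNA-seq of rat motor cortex, 12 in all, with 3 separately numbered rats in each of 4 groups. Stimulated PD rats stand for Parkinson's disease (PD) through 6-OHDA, a toxin that kills dopamine neurons, and had electrical stimulation of the primary motor cortex. PD rats had the lesion without stimulation, stimulated control rats had stimulation without the lesion, and control rats had neither. By the series text, a graphene array of electrodes delivered pulses at 130 Hz, with daily sessions of 1 hour through 2 weeks. The sources used here do not say if stimulated controls followed that schedule, nor do they give strain, sex, age, hemisphere, batch or any sham treatment. PD and stimulated PD rats together are called lesioned below, and stimulated control and control rats unlesioned.

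Complex I is the first enzyme of the respiratory chain. It takes electrons from NADH, passes them to ubiquinone and pumps protons across the inner mitochondrial membrane. Its membrane arm is built around the subunits encoded in mitochondria, while the arm that binds NADH is made of subunits encoded in the nucleus. Loss of complex I activity has long been linked with Parkinson's disease, and inhibitors of the enzyme are used to model it. In mammals Mt-nd6 is encoded on the light strand of mitochondrial DNA and the other members on the heavy strand, all read from long transcripts that are cut into single messages. Mt-nd4l and Mt-nd4 stay together on 1 message with overlapping reading frames.

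Library totals ran from 42905441 to 62082830 reads. Mt-nd6 rested on 1233 to 5469 reads a library, which gives a counting error of at most 2.85%, and each of the other members on at least 38590 reads, with a counting error of at most 0.509%. These errors cover counting only, and the spread between rats was wider. Across libraries of the same group the Pearson correlation over features was lowest in PD rats, at 0.961 to 0.984, against 0.976 to 0.988 in stimulated PD, 0.982 to 0.985 in stimulated control and 0.989 to 0.992 in control rats. The lowest of these was that of PD rats 1 and 2. PD rats 2 and 3 recur below as the libraries that stood apart in the balance among members, so results that rest on them are given with and without them. With both left out the PD group is 1 rat, which is then taken to vary like the rats of the other groups. Whether the tissue label holds could not be set against marker genes, since the features carry no names. Values are CPM as deposited (reads of a feature scaled to a common library total), and differences are on the log2(CPM + 0.5) scale from limma, with p-values adjusted over all 14985 features tested (Benjamini-Hochberg, threshold 0.05).

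The 7 members together took 3.12%, 2.99% and 4.21% of all reads in the 3 stimulated PD rats and 3.34%, 3.51% and 3.05% in the 3 PD rats, against 2.36%, 2.46% and 2.32% in stimulated control rats and 2.72%, 2.74% and 2.54% in control rats. Every lesioned library was above every unlesioned one. The mean share was 3.37% ± 0.454 for the lesioned and 2.52% ± 0.177 for the unlesioned libraries (SD, n = 6 each), a ratio of 1.34. Without PD rats 2 and 3 the log2 of that ratio was 0.44, against 0.42 with all libraries. The highest single share, in stimulated PD rat 3, lies apart from the rest, and the log2 ratio without that rat was 0.34. In bulk tissue a change in the number of cells of a type and a change in RNA per cell cannot be told apart, and a share of reads is relative to all other RNA in the library. The 10 most counted features outside the members also took a larger share in lesioned rats, 8.08% to 9.89% against 6.66% to 7.48% in unlesioned rats, with no overlap, and the part of this in the members' values was not tested. The median feature of the whole table stood at -0.12 on the log2 scale in lesioned against unlesioned rats as deposited, and at 0.00 once libraries were scaled by TMM factors.

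**Figure D1:**
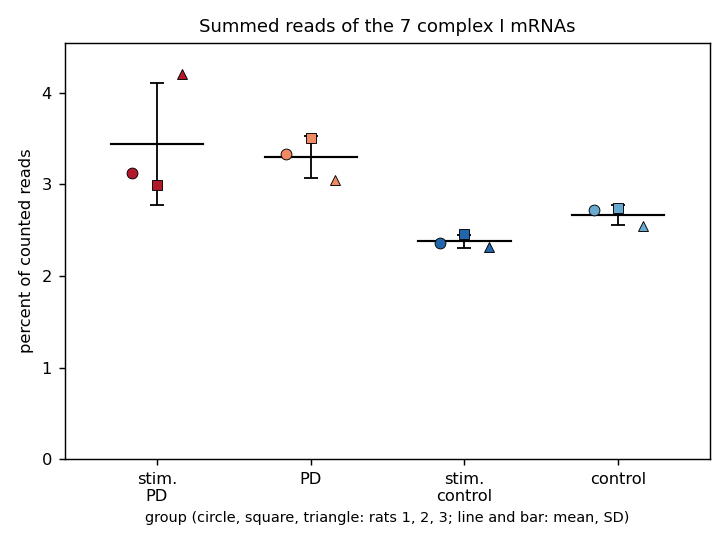
Share of all reads in a library (vertical axis, percent) taken by the 7 mitochondrially encoded complex I subunits together, 1 point a rat, grouped along the horizontal axis with stimulated PD and PD left of stimulated control and control. The 6 lesioned libraries lie between 2.99% and 4.21%, all above the 6 unlesioned ones, which lie between 2.32% and 2.74%.

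Tested singly, 4 of the 7 members rose in lesioned against unlesioned rats, namely Mt-nd1, Mt-nd2, Mt-nd3 and Mt-nd4, and none fell. Over all features tested 4.99% were called higher and 18.0% lower in this comparison. The same 4 members did not overlap between the 6 lesioned and the 6 unlesioned libraries, where 2.48% of all features lay wholly higher. The median difference over the members was 0.39 on the log2 scale, beside -0.12 over all features, of which 33.9% had a positive difference. The calls other than that of Mt-nd2 were close to the threshold. The number of members called was 1, that 1 being Mt-nd2, without control rat 1, control rat 2, stimulated control rat 1 or stimulated PD rat 3. It was 2, Mt-nd2 and Mt-nd4, without control rat 3, stimulated control rat 3 or stimulated PD rat 1. Over those 7 fits 2.58% to 3.48% of all features were called higher. The members called numbered 3 without PD rat 2 or PD rat 3, where Mt-nd1 was lost, and without stimulated control rat 2, where Mt-nd3 was lost. Over all features 8.58%, 5.39% and 4.82% were called higher in those 3 fits. Without PD rat 1 the members called numbered 5, with Mt-nd6 called lower. In that fit 4.89% of all features were called higher and 22.3% in either direction. Without PD rats 2 and 3 the estimates of Mt-nd1 and Mt-nd4l were 0.31 and 0.36 on the log2 scale. Forcing all libraries onto 1 common distribution (quantile normalization) left 0 members called and turned the estimates of Mt-nd1 and Mt-nd4 to just below 0. With quantile normalization 1800 of 14985 features were called higher, against 748 without it. That setting gives every library the same set of values, so an estimate follows the rank of a member among the features. For members as highly counted as Mt-nd1, Mt-nd2 and Mt-nd4 it cannot show a rise that leaves the rank unchanged. A rank that stayed the same would give an estimate of 0, so an estimate below 0 stands for a lower rank on average. The ranks were not listed. What the sign turns and lost calls, here and below, mean for the levels was not tested. edgeR called the same 4 members, where it called 10.8% of all features higher, and DESeq2 called 6, with Mt-nd4l and Mt-nd5 added, where it called 14.8% higher.

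Mt-nd1 sits where the membrane arm meets the arm that binds NADH and forms part of the channel through which ubiquinone enters. Its level was 6759, 6543 and 9662 CPM in stimulated PD rats 1, 2 and 3 and 7214, 9288 and 7613 CPM in PD rats, against 5593, 5724 and 5398 CPM in stimulated control and 6472, 6443 and 6051 CPM in control rats. Stimulated PD rat 3 and PD rat 2 were high, and all 6 lesioned rats were above all 6 unlesioned ones. The gap was narrow, with stimulated PD rat 2 at 6543 CPM beside control rat 1 at 6472 CPM. Lesioned rats differed by 0.39 on the log2 scale (SE 0.12, limma adjusted p = 0.0431). The adjusted p was 0.0678 without PD rat 2 and 0.0843 without stimulated PD rat 3.

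Mt-nd2, Mt-nd4 and Mt-nd5 are the 3 large subunits related to bacterial antiporters that carry the proton channels along the membrane arm. Mt-nd2 had 8060, 7663 and 10658 CPM in stimulated PD rats and 8233, 8924 and 8340 CPM in PD rats, against 5363, 5597 and 5101 CPM in stimulated control and 6394, 6309 and 5890 CPM in control rats. The lowest lesioned rat was above the highest unlesioned rat by more than the whole range of the control rats, and Mt-nd2 had the largest difference of the 7 members, 0.58 on the log2 scale (SE 0.11, limma adjusted p = 0.0075). That is 1.49-fold, higher in 6 of 6 lesioned rats than in any unlesioned rat. The call for Mt-nd2 remained under 23 of 25 other settings and with each library left out in turn. It was lost with quantile normalization (0.27, adjusted p = 0.057) and with the replicate numbers of the sample descriptions as a block (0.51, adjusted p = 0.0593).

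Mt-nd4 had 8704, 8274 and 11022 CPM in stimulated PD rats and 9576, 9370 and 7759 CPM in PD rats, against 6296, 6646 and 6204 CPM in stimulated control and 7329, 7444 and 6951 CPM in control rats. No lesioned library reached down to an unlesioned one. The difference was 0.41 on the log2 scale (SE 0.11, limma adjusted p = 0.0235), and the adjusted p lay between 0.0194 and 0.057 when each library was left out in turn. Mt-nd5, at the far end of the membrane arm, behaved otherwise. It had 5330, 5166 and 7921 CPM in stimulated PD rats and 5878, 4626 and 4920 CPM in PD rats, against 4528, 4658 and 4564 CPM in stimulated control and 4937, 5147 and 4655 CPM in control rats. Here the ranges overlapped, with PD rats 2 and 3 inside the unlesioned range. The difference of 0.23 on the log2 scale (SE 0.12) did not pass (limma adjusted p = 0.202), and it was 0.13 without stimulated PD rat 3.

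Mt-nd3, Mt-nd4l and Mt-nd6 are small subunits packed between Mt-nd1 and Mt-nd2 in the part of the membrane arm that links ubiquinone binding to proton pumping. Mt-nd3 carries the loop whose exposure marks the resting form of the mammalian enzyme. Its level was 1092, 988 and 1240 CPM in stimulated PD rats and 1054, 1889 and 905 CPM in PD rats, against 760, 829 and 843 CPM in stimulated control and 899, 867 and 818 CPM in control rats. PD rat 2 stood far above every other library and PD rat 3 only just above control rat 1. The difference was 0.47 on the log2 scale (SE 0.15, limma adjusted p = 0.0446). Without PD rat 2 it was 0.31 with a limma adjusted p of 0.0173, and without PD rats 2 and 3 it was 0.37. The call for Mt-nd3 was lost under 13 of 25 other settings, among them leaving out any control or stimulated control rat, stimulated PD rat 1 or stimulated PD rat 3, with adjusted p of 0.06 to 0.0984 over those 8 fits.

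Mt-nd4l shares its message with Mt-nd4. It had 1213, 1225 and 1495 CPM in stimulated PD rats and 1340.5, 989 and 930 CPM in PD rats, against 991, 1026 and 985 CPM in stimulated control and 1069, 1093 and 1015 CPM in control rats. All stimulated PD rats and PD rat 1 were above every unlesioned rat, while PD rats 2 and 3 were not. The lesioned against unlesioned difference was 0.20 on the log2 scale (SE 0.10, limma adjusted p = 0.163) and 0.12 without PD rat 1. Mt-nd6 is the least counted member and the light-strand gene. It had 90.6, 74.1 and 105.6 CPM in stimulated PD rats and 72.6, 22.8 and 45.6 CPM in PD rats, against 97.2, 78.0 and 88.2 CPM in stimulated control and 74.7, 90.6 and 64.8 CPM in control rats. PD rats 2 and 3 were the lowest of the 12 libraries, and the other 10 lay between 64.8 and 105.6 CPM. The difference of -0.40 on the log2 scale (SE 0.22) did not pass (limma adjusted p = 0.205). It was -0.60 without PD rat 1 (limma adjusted p = 0.0336), -0.18 without PD rat 2 and -0.019 without PD rats 2 and 3. In human cells the ND6 message has little or no poly(A) tail, and the strand setting of the read counting is not given here, so reads of Mt-nd6 and of the transcript opposite to it cannot be told apart in these counts.

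**Figure D2:**
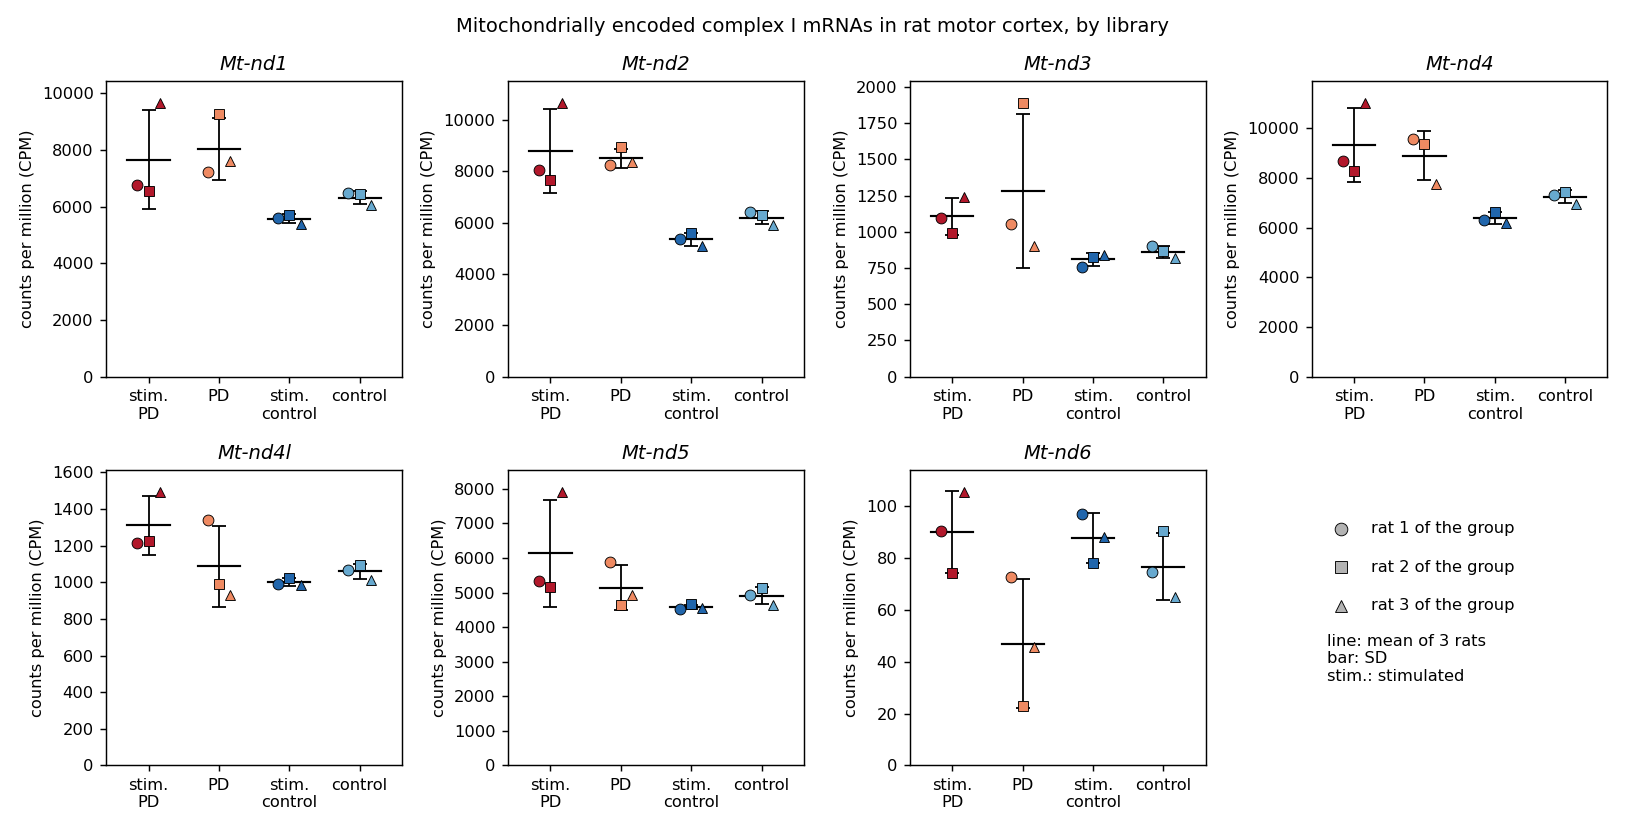
Level of each of the 7 members in CPM (vertical axis, a separate scale for each panel), 1 point a rat, with the group mean and SD, and stimulated PD and PD left of stimulated control and control. Mt-nd1, Mt-nd2, Mt-nd3 and Mt-nd4 do not overlap between the 6 lesioned and 6 unlesioned rats, while PD rat 2 lies far above the others for Mt-nd3, at 1889 CPM, and far below them for Mt-nd6, at 22.8 CPM.

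By group means the order of levels was not the same for all members. For Mt-nd2 and Mt-nd4 it was stimulated PD, PD, control and stimulated control from highest to lowest. The means of Mt-nd2 were 8794 ± 1627, 8499 ± 372, 6198 ± 269 and 5354 ± 249 CPM in that order (SD, n = 3 each), and those of Mt-nd4 were 9333 ± 1479, 8902 ± 995, 7241 ± 258 and 6382 ± 233 CPM. Among neighbours in this order only stimulated PD and PD overlapped. For Mt-nd1 PD came first at 8038 ± 1101 CPM and stimulated PD next at 7655 ± 1742 CPM, ahead of control at 6322 ± 235 and stimulated control at 5572 ± 164 CPM, and again only the first pair overlapped. Mt-nd3 had that order too, with 1283 ± 530, 1107 ± 126, 862 ± 40.8 and 811 ± 44.2 CPM, and both the first and the last pair of neighbours overlapped. Mt-nd4l and Mt-nd5 followed the order of Mt-nd2, with every pair of neighbours overlapping. Mt-nd6 alone had PD lowest, with 90.1 ± 15.8 CPM in stimulated PD, 87.8 ± 9.59 in stimulated control, 76.7 ± 13.0 in control and 47.0 ± 24.9 in PD rats, every pair of neighbours overlapping. The members varied more among lesioned rats. Their median SD on the log2 scale was 0.25 in stimulated PD and 0.19 in PD rats, against 0.05 in stimulated control and 0.06 in control rats, whereas the median over all features was 0.14, 0.29, 0.16 and 0.13 in the same order.

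The lesion comparison can be read separately in stimulated and in unstimulated rats, which share no library, although the fit takes 1 residual variance for each feature from all 12. In stimulated PD against stimulated control rats 6 members, all but Mt-nd6, lay wholly higher, where 14.3% of all features did so. No member passed the adjusted threshold, where 0.440% of all features were called higher. At an unadjusted p under 0.05 limma gave 5 members higher, beside 7.90% of all features. At the adjusted threshold edgeR called 0 members, where it called 0.0534% of all features higher. DESeq2 called 5 at that threshold, where it called 6.94% of all features higher. The differences were 0.70 for Mt-nd2 (limma adjusted p = 0.0501), 0.54 for Mt-nd4 (0.0738), 0.44 for Mt-nd1 (0.146), 0.44 for Mt-nd3 (0.214), 0.39 for Mt-nd5 (0.181), 0.38 for Mt-nd4l (0.119) and 0.03 for Mt-nd6 (0.964), each on the log2 scale. The estimate of Mt-nd1 was -0.04 with quantile normalization, which follows its rank only. Without stimulated PD rat 3 those of Mt-nd1 and Mt-nd5 were 0.26 and 0.20. The median over the members was 0.44 beside -0.12 over all features. Mt-nd2 was called without PD rat 1, PD rat 2, PD rat 3 or stimulated control rat 2, joined by Mt-nd4l without PD rat 1 and by Mt-nd3 without PD rat 2. Over all features 4.34%, 4.78%, 1.03% and 1.36% were called higher in those 4 fits, in the order named. With PD rats 2 and 3 both out of the fit, which removes no library of this comparison and leaves its estimates as they were, 4 members were called, where 8.03% of all features were called higher.

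In unstimulated rats 4 members, Mt-nd1, Mt-nd2, Mt-nd3 and Mt-nd4, lay wholly higher in PD than in control rats, where 5.81% of all features did so. Again no member passed, where 0.280% of all features were called higher and 4.10% lower. At an unadjusted p under 0.05 limma gave 2 members higher, Mt-nd2 and Mt-nd3, and 1 lower, Mt-nd6. Of all features 4.21% lay higher and 19.8% lower at that p. At the adjusted threshold edgeR called 0 members, where it called 0.707% of all features higher. DESeq2 called 3 at that threshold, where it called 5.99% of all features higher. On the log2 scale Mt-nd3 stood at 0.50 (limma adjusted p = 0.185), Mt-nd2 at 0.46 (0.105), Mt-nd1 at 0.34 (0.265) and Mt-nd4 at 0.29 (0.288). Mt-nd5 at 0.06 (0.870) and Mt-nd4l at 0.02 (0.952) lay near 0, and Mt-nd6 stood at -0.84 (0.133), with a 95% interval of -1.53 to -0.15. The estimate for Mt-nd3 was 0.18 without PD rat 2 and 0.29 without PD rats 2 and 3. With quantile normalization, where estimates follow ranks only, those of Mt-nd1, Mt-nd4 and Mt-nd5 turned to slightly below 0. The median over the members was 0.29 beside -0.11 over all features. The estimate for Mt-nd6 rests on PD rats 2 and 3: it was -1.22 without PD rat 1 (limma adjusted p = 0.0333, where 4.39% of all features were called in either direction), -0.40 without PD rat 2 and -0.07 without PD rats 2 and 3.

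An interaction test, which asks if the lesion difference was itself different under stimulation, called no member and no feature (0% of 14985) by limma and no member by edgeR or DESeq2. No member reached an unadjusted p under 0.05 in limma, where 4.13% of all features did. The largest of these estimates was that of Mt-nd6, 0.87 on the log2 scale (SE 0.45, unadjusted p = 0.0771, limma adjusted p = 0.834), and that of Mt-nd4l was 0.36. Without PD rat 2 they were 0.43 and 0.31, and without PD rats 2 and 3 they were 0.095 and 0.042.

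**Figure D3:**
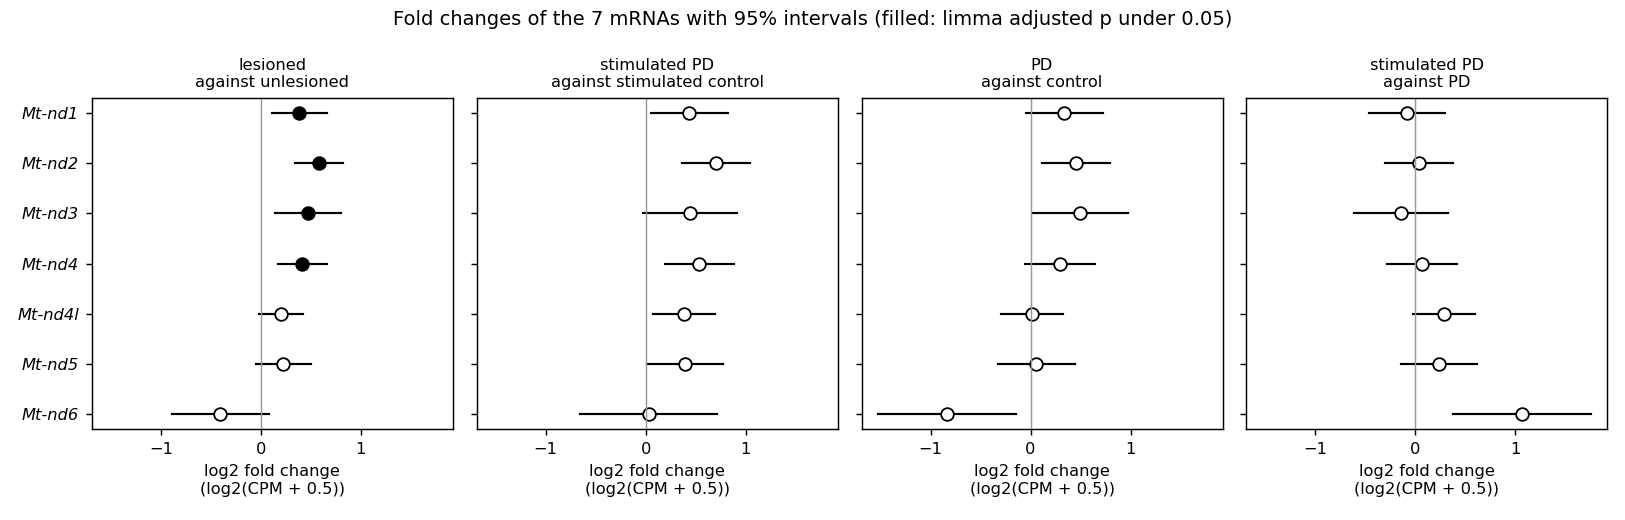
Difference on the log2(CPM + 0.5) scale (horizontal axis) with its 95% interval for each of the 7 members (vertical axis), in 1 panel for each of lesioned against unlesioned, stimulated PD against stimulated control, PD against control and stimulated PD against PD. Mt-nd2 has the largest difference in the first 2 panels, at 0.58 and 0.70. Mt-nd6 has the lowest estimate in the PD against control panel, -0.84, and the highest in the stimulated PD against PD panel, 1.07. With quantile normalization Mt-nd1 turns below 0 in the first 3 panels. Mt-nd4 does so in the lesioned against unlesioned and PD against control panels, and Mt-nd5 in the PD against control panel. That setting follows ranks among features and cannot show a rise that leaves the rank unchanged.

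The comparison that asks what stimulation did in the model is that of stimulated PD with PD rats. No member and no feature was called (0%) by limma or by edgeR. DESeq2 called no member either, where it called 6.06% of all features. Mt-nd6 was the only member wholly higher in stimulated PD rats, where 9.98% of all features lay wholly higher, and the only one with an unadjusted p under 0.05, where limma gave 11.7% of all features higher. Its difference was 1.07 on the log2 scale (SE 0.32, 95% interval 0.38 to 1.76, unadjusted p = 0.00561, limma adjusted p = 0.214). The margin was thin, since the lowest stimulated PD rat had 74.1 CPM and PD rat 1 had 72.6 CPM. Without PD rat 1 the difference was 1.45 (limma adjusted p = 0.0117) and Mt-nd4l was called too, at 0.44 (0.0268), where 10.2% of all features were called higher, against 0% with all libraries. Without PD rat 2 the difference of Mt-nd6 was 0.63, and without PD rats 2 and 3, with 1 PD rat left, those of Mt-nd6 and Mt-nd4l were 0.30 and -0.04. The other differences with all libraries were 0.28 for Mt-nd4l (limma adjusted p = 0.306), 0.24 for Mt-nd5 (0.441; 0.037 without stimulated PD rat 3), 0.06 for Mt-nd4, 0.03 for Mt-nd2, -0.09 for Mt-nd1 and -0.14 for Mt-nd3. Those of Mt-nd2 and Mt-nd4 were slightly below 0 with TMM factors, median-of-ratios factors and DESeq2, and that of Mt-nd2 with edgeR too.

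In rats without the lesion no member passed with stimulation. Mt-nd1, Mt-nd2 and Mt-nd4 lay wholly lower in stimulated control than in control rats, where 3.40% of all features did so, and 6 of 7 estimates were negative, from -0.21 for Mt-nd2 on the log2 scale to 0.20 for Mt-nd6, although that of Mt-nd4l was slightly above 0 with quantile normalization. No member and no feature was called by limma (0%), no member had an unadjusted p under 0.05, where 1.79% of all features did, and edgeR and DESeq2 called 0 members. Stimulated PD against control rats, which differ in both lesion and stimulation and share their libraries with the comparisons above, had 6 members wholly higher, where 15.4% of all features were. limma called 0 members, where 0.00667% of all features were called higher, and gave 2 members higher at an unadjusted p under 0.05, Mt-nd2 at 0.49 (adjusted p = 0.132) and Mt-nd4 at 0.36, where 7.59% of all features did so. edgeR called 0 members, and DESeq2 called 1, Mt-nd2, where it called 4.47% of all features higher. Without stimulated PD rat 3 the estimate of Mt-nd4 was 0.23, and with quantile normalization those of Mt-nd1 and Mt-nd4 were -0.11 and 0.

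The balance among the members lay farther from the unlesioned mean in lesioned than in unlesioned rats, and it varied most among PD rats. It was described as the share of each member in the reads of all 7, which does not depend on the scaling of a library. These are shares of reads, not of messages, since gene lengths were not used here. The part of the reads that would have to move to another member to match the mean balance of the unlesioned rats was 3.97%, 3.39% and 2.45% in stimulated PD rats and 3.52%, 7.50% and 5.85% in PD rats, against 0.736%, 0.405% and 1.65% in stimulated control and 1.10%, 0.421% and 0.994% in control rats. All lesioned libraries were farther from that mean, which the unlesioned libraries themselves define, and PD rats 2 and 3 were the farthest. Mt-nd2 took 24.7% to 27.3% of the member reads in every lesioned rat, against 22.0% to 23.5% in every unlesioned rat. Mt-nd5 took 13.2% to 18.8% in lesioned and 18.2% to 19.7% in unlesioned rats. Mt-nd3 took 5.38% in PD rat 2 and 2.94% to 3.64% in the other 11 rats. Mt-nd6 took 0.290%, 0.248% and 0.251% in stimulated PD rats and 0.217%, 0.0650% and 0.150% in PD rats, against 0.411%, 0.318% and 0.380% in stimulated control and 0.275%, 0.331% and 0.255% in control rats. Relative to the control mean, the share of Mt-nd6 in PD rat 2 stood at -2.14 on the log2 scale and in PD rat 3 at -0.94. In PD rat 2 those of Mt-nd4l, Mt-nd5 and Mt-nd3 stood at -0.50, -0.48 and 0.74.

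**Figure D4:**
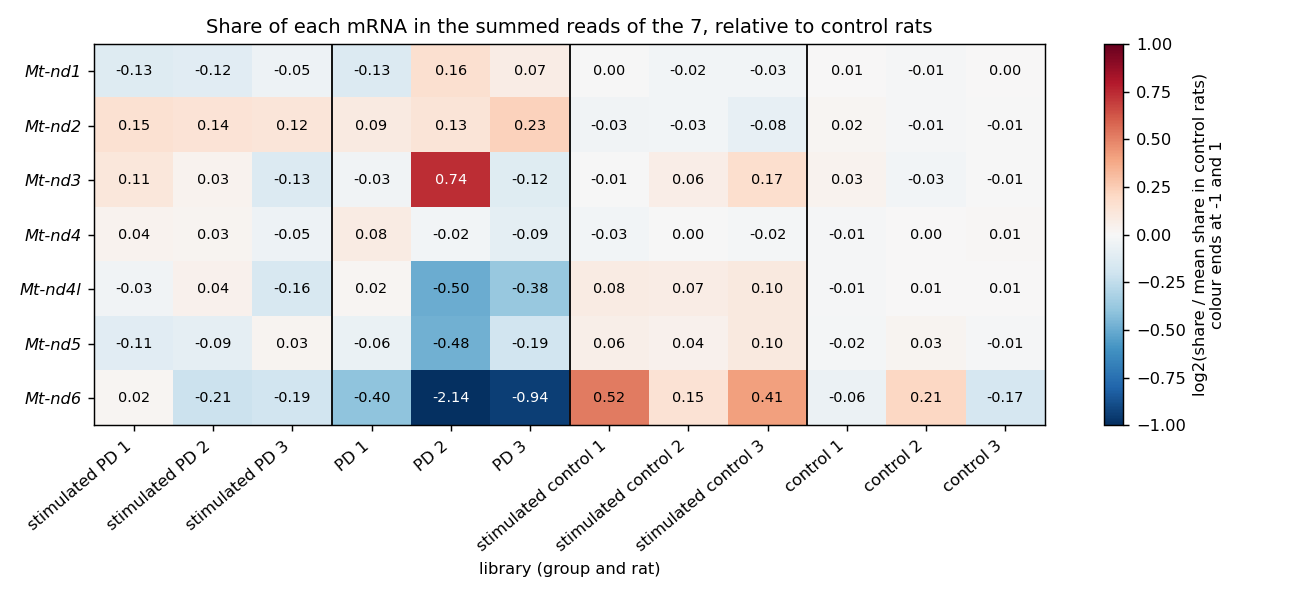
Share of each member in the reads of all 7 members, as a log2 difference from the mean share of the control rats (colour), with members down the page and the 12 libraries across it, stimulated PD and PD left of stimulated control and control. PD rat 2 has the widest departures, -2.14 for Mt-nd6 and 0.74 for Mt-nd3, and Mt-nd2 is above the control mean in every lesioned library.

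Ratios of reads between 2 members within a library restate these shares for single pairs and add no separate evidence. The pairs were picked after their values were seen and carry no test. Not all of the 21 possible pairs are given. Mt-nd2 over Mt-nd1, neighbours on the heavy strand, was 1.19, 1.17 and 1.10 in stimulated PD and 1.14, 0.961 and 1.10 in PD rats, against 0.959, 0.978 and 0.945 in stimulated control and 0.988, 0.979 and 0.973 in control rats. All lesioned rats except PD rat 2 were above the unlesioned range. Mt-nd5 over Mt-nd2 was 0.661, 0.674 and 0.743 in stimulated PD and 0.714, 0.518 and 0.590 in PD rats, against 0.844, 0.832 and 0.895 in stimulated control and 0.772, 0.816 and 0.790 in control rats, so that every lesioned rat was below every unlesioned one. Mt-nd4l over Mt-nd4, which share 1 message, was 0.139, 0.148 and 0.136 in stimulated PD and 0.140, 0.106 and 0.120 in PD rats, against 0.157, 0.154 and 0.159 in stimulated control and 0.146, 0.147 and 0.146 in control rats. The 3 control rats were almost equal, the stimulated control rats were all higher, and PD rats 2 and 3 were the lowest of all. Mt-nd6 over Mt-nd5, which lie side by side on opposite strands, was 0.0170, 0.0144 and 0.0133 in stimulated PD and 0.0123, 0.00493 and 0.00928 in PD rats, against 0.0215, 0.0167 and 0.0193 in stimulated control and 0.0151, 0.0176 and 0.0139 in control rats. All 3 PD rats were below the other 9. How reads that match both the mitochondrial genome and its copies in the nuclear genome were counted, or reads in the overlap of Mt-nd4l and Mt-nd4, is not stated in the labels or notes.

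**Figure D5:**
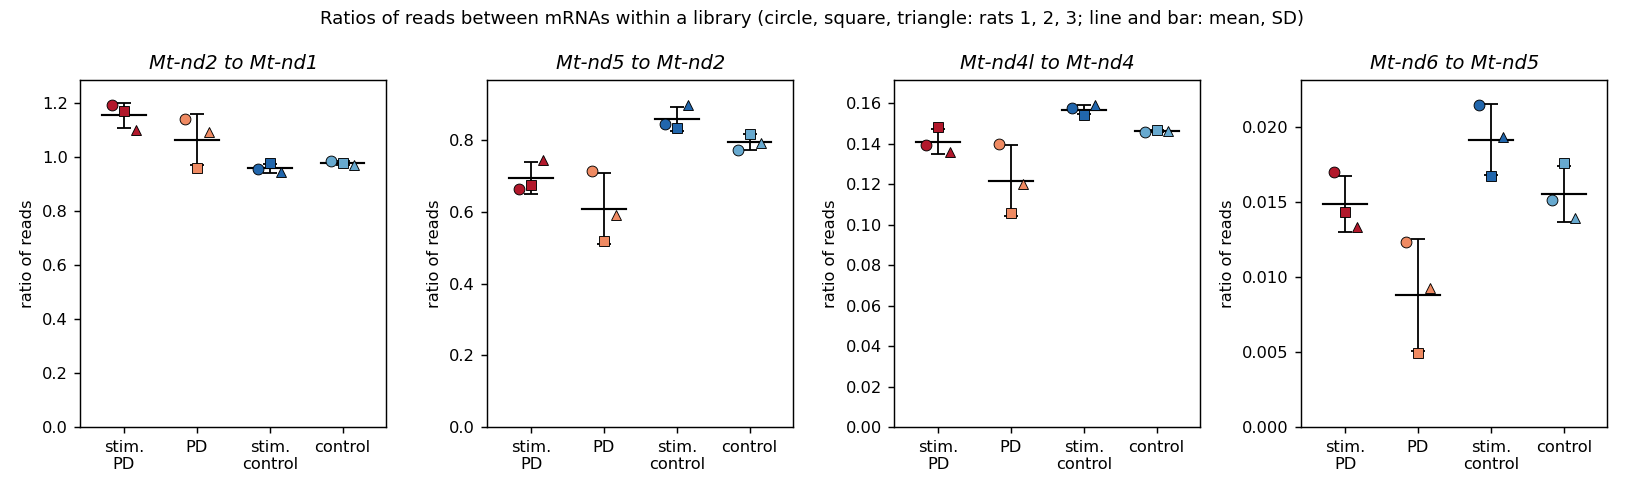
Ratio of reads between 2 members within a library (vertical axis, no unit, a separate scale for each panel), 1 point a rat, with stimulated PD and PD left of stimulated control and control. Mt-nd5 over Mt-nd2 is 0.518 to 0.743 in lesioned rats, all below the 0.772 to 0.895 of unlesioned rats, and PD rat 2 has the lowest Mt-nd4l over Mt-nd4, 0.106, and Mt-nd6 over Mt-nd5, 0.00493.

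Among 11723 features outside the members with a mean of at least 5 CPM, the one whose log2 level across the 12 libraries was most like the mean of the members was ENSRNOG00000009196 (Pearson r = 0.94), followed by ENSRNOG00000069455 (r = 0.91). The most opposite were ENSRNOG00000014634 (r = -0.94) and ENSRNOG00000049683 (r = -0.92). These are descriptions over libraries that fall into groups and share their scaling with the members. The mean gave each member equal weight on the log2 scale, although not all members followed the others. Across the 12 libraries r with the mean of the other members was -0.24 for Mt-nd6 and 0.34 for Mt-nd3. For the remaining members it ran from 0.65 for Mt-nd1 to 0.93 for Mt-nd5. In single pairs with members other than Mt-nd6, r of Mt-nd3 was 0.29 to 0.84 with all libraries. Without PD rats 2 and 3 it was 0.90 to 0.97. Pairs of Mt-nd6 with the other members had r of -0.64 to 0.44 with all libraries and 0.20 to 0.42 without PD rats 2 and 3. ENSRNOG00000009196 ranged over 77.6 to 100.6 CPM in stimulated PD and 63.4 to 80.5 CPM in PD rats, against 61.9 to 64.3 CPM in stimulated control and 57.9 to 66.2 CPM in control rats. The stimulated PD rats were above all unlesioned rats, while the PD rats overlapped with both unlesioned groups. Since these features were chosen for following the mean of the members over the same libraries, their lesioned against unlesioned differences are given as a description with no test. They were 0.29 on the log2 scale for ENSRNOG00000009196, 0.49 for ENSRNOG00000069455, -0.14 for ENSRNOG00000014634 and -0.35 for ENSRNOG00000049683.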

How the data were processed

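RNA was made into libraries with the TruSeq Stranded mRNA kit, which selects poly(A) RNA, per the labels' protocols. Reads were processed with Trim Galore, STAR and featureCounts on the build mRatBN7.2, per the submitters' processing notes. Not given in the sources used here: versions, annotation release and strand setting. The authors deposited 1 table of CPM values for 16534 Ensembl identifiers in 12 libraries. Each value was a whole multiple of what 1 read is worth (100% of values within 0.001 of a read), which gave library totals of 42905441 to 62082830 reads, of which 0.0190% to 0.130% lie outside the table. Libraries were assigned to groups by their titles. No 2 libraries of a group agreed within sampling noise (chi-square per feature of at least 34.1).

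Features with a mean over the 12 libraries of 0.5 CPM or more, 14985 in all, were fitted on the log2(CPM + 0.5) scale with limma 3.58.1 (1 mean a group, no covariate, variance trend, 8 residual degrees of freedom), with Benjamini-Hochberg adjustment over all of them. Lesioned against unlesioned is the mean of the 2 lesioned groups minus that of the 2 unlesioned groups. edgeR 4.0.16 and DESeq2 1.42.0 on the recovered counts, other scalings, pseudocounts and filters, replicate blocks and leaving out each library served as alternatives. The procedure was tested on simulated data with 1 common dispersion and planted changes larger than the lesioned against unlesioned differences of the members. That test does not show how well differences of the members' size are found. The members, lists and tests were chosen with earlier results of these data known. All 7 members are named; features outside them are named by their likeness to the members, the 2 most alike and the 2 most opposite, fewer than planned because they have no names. With no identifier paired with a name (0 matched), other complex I, mitochondrial and cell type genes were not analysed here. p-values measure the spread between separately numbered rats.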

Additional observations from a re-analysis of the deposited data

How the results depend on the processing

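Counting error was small beside the spread between the 3 rats of a group. In all, 26 alternatives were run, 12 of them leaving out 1 library each. Leaving out PD rats 2 and 3 together and CPM over reads outside the members were chosen after seeing the data. CPM outside all mitochondrially encoded genes was not run. The 1.34-fold ratio of the members' share of reads moved by less than the spread between single rats of a group (SD 0.15 on the log2 scale) under every setting tried for it. Those settings left out 1 library, PD rats 2 and 3 or the most counted member, or used the reads outside the members as the base. A ratio of means varies less than single rats do, and no other scaling was tried, so that limit was easily met.

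For lesioned against unlesioned rats 4 members were called, where 748 of 14985 features were called higher. The number of members was 1 with no filter on low values (720 of 16534 features higher). It was 0 with quantile normalization (1800 of 14985 features higher) and 1 to 5 with each library left out. For PD against control rats the count was 0, against 3 with DESeq2 (13.6% of all features called, against 4.38% as reported) and 0 to 1 with each library left out, the 1 being Mt-nd6 without PD rat 1. For stimulated PD against stimulated control rats it was 0 (1.45% of all features called), against 1 with a pseudocount of 0.1 CPM (1.43%), 5 with DESeq2 (13.5%), 1 with only the groups compared (14.4%), 4 without PD rats 2 and 3 (23.8%), and 0 to 2 with each library left out, of which 2 without PD rat 1 or PD rat 2 and 1 without PD rat 3 or stimulated control rat 2. For stimulated PD against PD rats it was 0, against 0 to 2 with each library left out, the 2 being Mt-nd6 and Mt-nd4l without PD rat 1 (19.6% of all features called, against 0% as reported). For stimulated PD against control rats it was 0, against 1 each with DESeq2 (1083 features called, against 5 as reported), with only the groups compared (2859) and without PD rats 2 and 3 (2887). The cause was not tested.

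With the replicate block by the rat number of the title 1 member, Mt-nd2, was called for lesioned against unlesioned rats (18.1% of all features called). With the number of the description it was 0 (9.75%). Libraries of the same number did not deviate together. Over 18 pairs by title the correlations of deviations ran from -0.46 to 0.36, and 2 of 12 libraries correlated best with their own number. Over 13 pairs by description they ran from -0.46 to 0.16, and 0 of 12 did so. The numbers are therefore not taken to pair the rats. The block by description number gave -0.040 for Mt-nd5 in PD against control rats and -0.19 for Mt-nd6 in stimulated PD against stimulated control rats, both with the sign turned.

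Of 1260 estimates over 49 member estimates 37 turned their sign, and 0 of those were called after turning. Quantile normalization gave -0.074, -0.084 and -0.082 for Mt-nd1, Mt-nd4 and Mt-nd5 in PD against control rats. For Mt-nd1 it gave -0.037 in stimulated PD against stimulated control rats and -0.11 in stimulated PD against control rats. In lesioned against unlesioned rats it gave -0.055 and -0.020 for Mt-nd1 and Mt-nd4. These estimates follow ranks among features and cannot show a rise that leaves the rank unchanged. In stimulated PD against PD rats Mt-nd2 and Mt-nd4 stood at -0.037 and -0.0086 with TMM factors, -0.049 and -0.021 with median-of-ratios factors and -0.028 and -0.012 with DESeq2, and Mt-nd2 at -0.014 with edgeR. Without PD rats 2 and 3, Mt-nd1, Mt-nd3, Mt-nd4 and Mt-nd4l stood at 0.062, 0.064, -0.049 and -0.039. With each library left out the estimate ran from -0.14 to 0.12 for Mt-nd4l and from -0.041 to 0.13 for Mt-nd5 in PD against control rats, and from -0.093 to 0.16 for Mt-nd6 in stimulated PD against stimulated control rats. In stimulated PD against PD rats it ran from -0.26 to 0.023 for Mt-nd1, from -0.11 to 0.13 for Mt-nd2, from -0.36 to 0.17 for Mt-nd3 and from -0.063 to 0.14 for Mt-nd4.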
